A study of Homo sapiens with 6 samples.

Results

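The genes described here are the serpins, the plasminogen system and a set of secreted protease inhibitors, measured by RNA sequencing in A375, an established human melanoma cell line. The set was defined with earlier results of these data known, and its genes were then taken by symbol. They are every row whose symbol starts with SERPIN, together with 20 named genes. The named genes are of the plasminogen, coagulation, Kunitz, cystatin, macroglobulin and inter-alpha-trypsin families. This rule gave 55 of 23345 gene symbols, of which 35 are serpins. One group of cells carried a lentivirus for murine BMI1, a subunit of Polycomb repressive complex 1, and the other, the control, a lentivirus for GFP. Both groups share the cell line, the serum-supplemented medium and a lentiviral infection, and the labels do not give the promoter of the vectors or say whether the cells were clones or pools. There were 3 libraries per group.

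Extracellular proteolysis runs in cascades. Plasminogen activators cut plasminogen to plasmin, a protease that degrades fibrin and other matrix proteins, and a cell surface receptor gathers one of the activators at the membrane. Serpins block serine proteases by offering a loop as bait and trapping the enzyme in a covalent complex, which the receptor LRP1 takes up. Kunitz inhibitors, cystatins and macroglobulins work by other means on overlapping sets of enzymes. Some serpins have lost protease inhibition and serve as hormone carriers or chaperones.

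Estimated counts summed to between 20221432 and 24557089 in the BMI1 libraries and between 20692385 and 30388937 in the GFP libraries. The BMI1 row had 515 ± 8.51 CPM (TMM-scaled counts per 1000000 counts) in BMI1 cells and 89.4 ± 6.87 CPM in GFP cells (SD, n = 3 each), and it holds the human transcript with those murine reads that aligned to it. GFP replicate 1 lay apart from the other GFP libraries on the second principal component, which held 12.2% of the variance. The labels do not say that replicates came from separate cultures, and the p-values therefore cover only how these libraries varied, which could be technical variation. Of 9 listed melanocyte lineage markers 6 were tested and 1 rose, with a summed level from 873 to 957 CPM in BMI1 libraries and from 847 to 1000 CPM in GFP libraries. SOX10 had 632 ± 41.7 CPM in BMI1 cells and 647 ± 77.5 CPM in GFP cells, while TYR and DCT had 1 and 7 counts over all libraries. Of 10 fibroblast markers, 6 of 8 tested rose, where 17.1% of all tested genes rose and 9.32% fell. The summed level of the 10 ran from 283 to 305 CPM in BMI1 libraries and from 199 to 209 CPM in GFP libraries. PRRX1 held most of it, with 211 ± 13.9 CPM in BMI1 cells and 159 ± 6.43 CPM in GFP cells. COL3A1 and THY1 had 6 and 5 counts over the BMI1 libraries and 8 and 1 over the GFP libraries. Of 11 hepatocyte markers, the summed level ran from 16.5 to 17.4 CPM in BMI1 libraries and from 5.17 to 6.28 CPM in GFP libraries, almost all of it from TF, while ALB, APOB, FGA, AHSG and HP had 0 counts. Only 2 of them were tested. TF rose and TTR fell, the latter with 15 counts over the BMI1 libraries and 58 over the GFP libraries. Of tested markers, 1 of 3 for keratinocytes rose, and 2 of 4 for endothelium rose and 1 fell. Of 2 for leukocytes 1 rose and 1 fell. KRT5, CDH5 and PTPRC had 1, 1 and 2 counts over the BMI1 libraries, against 1, 2 and 4 over the GFP libraries. KRT10, EGFL7 and CD68, each the highest of its list, had 63.3, 23.1 and 41.2 CPM in BMI1 cells and 60.6, 8.36 and 34.9 CPM in GFP cells. EGFL7 and CD68 rose and KRT10 did not pass, while KDR and LYZ fell. The part of other cell types in the results was not tested, and in bulk RNA fewer cells that express a gene and less RNA per cell cannot be told apart.

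More of these genes rose in BMI1 cells than fell. Of the 55 genes, 28 passed the filter on low counts, and of those 15 rose, 2 fell and 11 did not pass the test (edgeR quasi-likelihood test, adjusted p under 0.05). Among all tested genes 26.4% passed, 17.1% as rises and 9.32% as falls. The median log2 fold change, BMI1 over GFP, was 0.33 for the 28 and -0.01 for all tested genes. In 16 of the 28 genes every BMI1 library lay above every GFP library and in 2 every BMI1 library lay below, where 22.7% and 17.4% of all tested genes did so (40.1% in either direction). At least 2-fold rises were seen in 3 of them and at least 2-fold falls in 2, against a background of 4.93% and 0.577%. All 17 genes that passed the test were above the filter's level in all 6 libraries. Without GFP replicate 1, the same 17 passed in the same direction.

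**Figure D1:**
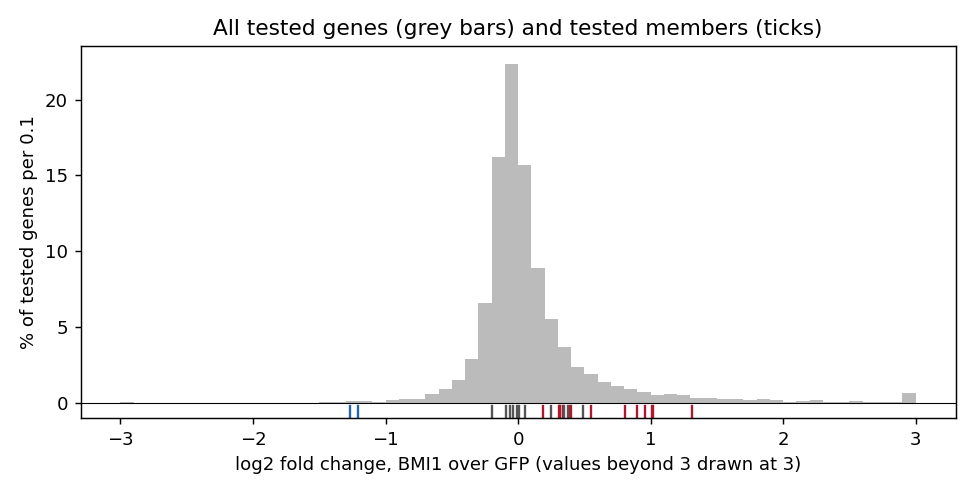
Distribution of log2 fold changes (BMI1 over GFP) of all tested genes as grey bars, in percent of tested genes per bin, with 27 of the 28 tested serpin, plasminogen system and inhibitor genes as ticks below the axis (red higher and blue lower in BMI1 past the threshold, dark grey not past it). The ticks run from -1.27 to 1.31, and most lie right of 0, where the median of all genes is -0.01.

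The plasminogen activator of the tissue type rose, while the urokinase gene was near the detection floor in both groups. PLAT, which encodes tissue plasminogen activator, had 134, 131 and 134 CPM in BMI1 replicates 1 to 3, against 81.2, 75.8 and 71.0 CPM in GFP replicates 1 to 3. The groups did not overlap, and the rise was 1.75-fold (log2 fold change 0.81, SE 0.06, adjusted p = 5.36e-07). PLAU, which encodes urokinase, had 2, 1 and 5 counts in the BMI1 libraries, against 5, 6 and 5 counts in the GFP libraries, and did not pass the filter. Its exons also share 771 bases with C10orf55 on the opposite strand, and whether counting used strand is not given in the sources used here. PLAUR, the urokinase receptor, had 41.0, 41.3 and 46.2 CPM in BMI1 libraries, against 37.6, 31.9 and 33.4 CPM in GFP libraries. Its rise was small but free of overlap between the groups (log2 fold change 0.32, SE 0.07, adjusted p = 0.00539). Per kilobase of transcript, PLAUR stood at 27.6 CPM in BMI1 cells and 22.2 CPM in GFP cells, and PLAT at 50.1 CPM in BMI1 cells and 28.7 CPM in GFP cells.

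Inhibitors of plasminogen activators and plasmin took different courses. SERPINE2, which encodes protease nexin-1, an inhibitor of thrombin, urokinase and tissue plasminogen activator, was by far the most abundant of the 55 genes, with 5700, 5900 and 5590 CPM in BMI1 libraries, against 5590, 5710 and 5820 CPM in GFP libraries. By CPM it had rank 2 of all genes in each library except GFP replicate 1, where it had rank 3. The groups overlapped, and its log2 fold change was 0.01 with a 95% interval from -0.07 to 0.08 (adjusted p = 0.924). Per kilobase of transcript, SERPINE2 stood at 2610 CPM in BMI1 cells and 2600 CPM in GFP cells.

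Alpha-2-antiplasmin, the main plasma inhibitor of plasmin, is encoded by SERPINF2, which had 2.99, 2.43 and 2.93 CPM in BMI1 libraries, against 1.58, 1.11 and 1.59 CPM in GFP libraries. Every BMI1 library lay above the GFP libraries, with a rise of 1.95-fold (log2 fold change 0.96, SE 0.19, adjusted p = 0.00274). SERPINA5, the protein C inhibitor gene, whose product also inhibits urokinase, had 42.0 ± 1.32 CPM in BMI1 cells and 33.2 ± 2.28 CPM in GFP cells (log2 fold change 0.34, SE 0.06, adjusted p = 0.00118). SERPINI1, which encodes neuroserpin, an inhibitor of tissue plasminogen activator in the nervous system, went the other way, with 0.67, 0.79 and 0.65 CPM in BMI1 libraries, against 1.73, 1.47 and 1.69 CPM in GFP libraries. It was the only serpin among the 16 tested that fell (log2 fold change -1.21, SE 0.22, adjusted p = 0.00125), on 47 counts over the BMI1 libraries and 124 over the GFP libraries. SERPINB2, which encodes plasminogen activator inhibitor 2, had 1 count over the BMI1 libraries and 0 over the GFP libraries, and SERPINE3 had 3 counts over each group.

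LRP1, the endocytic receptor that clears protease-inhibitor complexes and macroglobulin, had 106, 112 and 118 CPM in BMI1 libraries, against 87.7, 84.7 and 84.0 CPM in GFP libraries. The groups were separate, with a log2 fold change of 0.39 (SE 0.06, adjusted p = 0.000185). Its exons share 59 bases with STAT6 on the opposite strand. LRPAP1, the chaperone that keeps ligands off LRP1 during its folding, rose too, with 110 ± 3.58 CPM in BMI1 cells and 86.3 ± 2.35 CPM in GFP cells (log2 fold change 0.35, adjusted p = 0.000297).

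**Figure D2:**
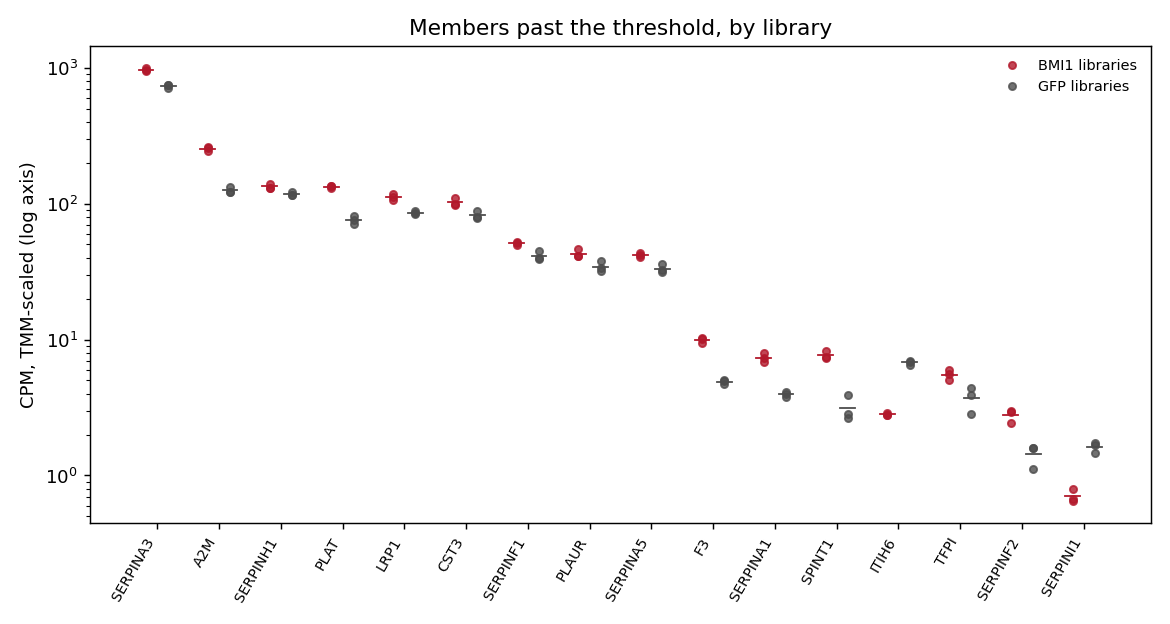
Level of 16 of the 17 genes past the threshold in every library, in CPM on a log axis, with BMI1 libraries in red left of GFP libraries in dark grey and short lines at the group means, ordered by mean level. ITIH6 and SERPINI1 are the only genes in this plot with the BMI1 libraries below the GFP libraries, and no gene in it has overlapping groups.

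Coagulation is started by tissue factor, the membrane protein encoded by F3. F3 had 10.3, 9.47 and 10.1 CPM in BMI1 libraries, against 4.74, 4.93 and 5.07 CPM in GFP libraries, and all BMI1 libraries were above all GFP libraries. The rise was 2.02-fold (log2 fold change 1.02, SE 0.10, adjusted p = 5.6e-06). TFPI, whose Kunitz-type product blocks tissue factor together with its partner protease, had 5.62, 5.95 and 5.01 CPM in BMI1 libraries, against 2.83, 4.41 and 3.94 CPM in GFP libraries. It rose 1.47-fold (log2 fold change 0.55, SE 0.16, adjusted p = 0.0236), but the call was lost without BMI1 replicate 1 (edgeR adjusted p = 0.0757) or BMI1 replicate 2 (0.0711). TFPI2, a matrix-bound relative that inhibits plasmin, had 16.3 ± 1.74 CPM in BMI1 cells and 13.8 ± 1.44 CPM in GFP cells and did not pass (log2 fold change 0.25, adjusted p = 0.0851). It passed without GFP replicate 1 (0.0201), after correction for transcript GC content (0.0161) and with the replicate number as a block (0.0392). SERPIND1, the heparin cofactor II gene, had 1.82 ± 0.348 CPM in BMI1 cells and 1.44 ± 0.0469 CPM in GFP cells (adjusted p = 0.228), and SERPINA10, the protein Z-dependent inhibitor gene, 0.491 ± 0.154 CPM in BMI1 cells and 0.519 ± 0.083 CPM in GFP cells (adjusted p = 0.865). SERPINC1, the antithrombin gene, had 1 count over the BMI1 libraries and 4 over the GFP libraries.

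Promoters from RefSeq (GRCh38.p14) matched 28 of the 55 genes by symbol, and the 250 bases before the start are shown for a pair of genes that rose, F3 and SERPINA3, and for both genes that fell. Each is printed 5′ to 3′ on its gene's strand, and capitals mark matches on either strand to TATAAA (the TATA box), GGGCGG (the GC box), TGANTCA (the AP-1 site), CACGTG (a form of the E-box) or CAGACA (the SMAD-binding CAGA box). Other forms of the E-box were not searched. No matches overlap in these sequences.
F3, chr1:94541760-94542009, minus strand: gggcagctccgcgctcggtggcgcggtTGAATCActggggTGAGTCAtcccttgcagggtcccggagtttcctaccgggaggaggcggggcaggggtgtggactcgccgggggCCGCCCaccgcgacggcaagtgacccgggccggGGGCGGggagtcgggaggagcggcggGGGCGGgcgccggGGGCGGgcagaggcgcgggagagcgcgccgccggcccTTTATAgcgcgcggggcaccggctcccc
SERPINA3, chr14:94612141-94612390, plus strand: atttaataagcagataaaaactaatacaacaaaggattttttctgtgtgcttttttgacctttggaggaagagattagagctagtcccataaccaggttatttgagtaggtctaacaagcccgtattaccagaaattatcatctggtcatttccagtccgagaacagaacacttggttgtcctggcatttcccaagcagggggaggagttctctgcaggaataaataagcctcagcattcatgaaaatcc
ITIH6, chrX:54798256-54798505, minus strand: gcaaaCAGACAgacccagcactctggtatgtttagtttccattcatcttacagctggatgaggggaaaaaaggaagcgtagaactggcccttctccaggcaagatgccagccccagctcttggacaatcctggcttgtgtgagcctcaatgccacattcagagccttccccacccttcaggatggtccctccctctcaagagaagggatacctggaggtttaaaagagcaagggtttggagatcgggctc
SERPINI1, chr3:167735471-167735720, plus strand: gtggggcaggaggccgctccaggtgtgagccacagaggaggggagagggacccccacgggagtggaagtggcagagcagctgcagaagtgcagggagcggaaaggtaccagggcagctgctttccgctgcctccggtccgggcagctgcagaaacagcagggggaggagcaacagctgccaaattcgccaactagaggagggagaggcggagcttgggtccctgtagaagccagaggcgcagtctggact
The F3 promoter held 2 matches to TGANTCA, 4 to GGGCGG and 1 to TATAAA, where 6.57%, 42.6% and 10.7% of 35116 promoters of the same length held at least 1. The ITIH6 promoter held 1 match to CAGACA, found in 13.6% of promoters, and those of SERPINA3 and SERPINI1 held none of the 5 motifs. CACGTG, found in 6.34% of promoters, was in none of the 4. CpG counts differed among these 4 promoters, and their relation to direction was not tested. F3 had 34 CpG dinucleotides, more than 93.2% of promoters, while SERPINA3 and ITIH6 had 2 and SERPINI1 had 9. Over the 7 matched genes that rose, CpG counts ran from 2 to 34, with a median of 13 against 11 for all promoters.

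SPINT1 had the largest rise among the 28 tested genes. It encodes hepatocyte growth factor activator inhibitor 1, a membrane Kunitz inhibitor of matriptase and of the protease that activates hepatocyte growth factor. Its level was 7.45, 7.29 and 8.27 CPM in BMI1 libraries, against 3.93, 2.66 and 2.82 CPM in GFP libraries, without overlap (2.48-fold, log2 fold change 1.31, SE 0.15, adjusted p = 3.04e-05). Without GFP replicate 1, the highest GFP library, the log2 fold change was 1.49. The related SPINT2 was near the floor, with 6 counts over the BMI1 libraries and 2 over the GFP libraries. Of the proteases that SPINT1 inhibits, ST14, the matriptase gene, had 8 counts over each group, and HGFAC had 1 count over the BMI1 libraries and 3 over the GFP libraries. HPN, which encodes hepsin, a further target named after its values were seen, had 2.20 ± 0.128 CPM in BMI1 cells and 2.03 ± 0.111 CPM in GFP cells and did not pass (adjusted p = 0.653). HGF, the growth factor itself, had 26 counts over the BMI1 libraries and 16 over the GFP libraries and was not tested. MET, the receptor of that factor, had 106 ± 1.84 CPM in BMI1 cells and 95.4 ± 6.04 CPM in GFP cells and did not pass (log2 fold change 0.16, adjusted p = 0.0631). It passed with upper-quartile scaling (edgeR adjusted p = 0.0452), with at least 1 CPM required in 3 libraries (0.045) and after GC correction (0.000156).

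Among inhibitors with a broad range, the macroglobulin and a cystatin rose. A2M, whose product cages proteases of every class, had 259, 255 and 243 CPM in BMI1 libraries, against 122, 121 and 132 CPM in GFP libraries. That is a level 2.02-fold higher in BMI1 cells, with widely separate groups and the smallest adjusted p of the 55 genes (log2 fold change 1.01, SE 0.05, adjusted p = 2.03e-08). The relatives A2ML1 and PZP had 14 and 2 counts over the BMI1 libraries, against 23 and 1 over the GFP libraries. CST3, which encodes cystatin C, a secreted inhibitor of cysteine cathepsins, had 98.9, 98.2 and 109 CPM in BMI1 libraries, against 88.7, 80.3 and 78.8 CPM in GFP libraries. The rise was 1.24-fold (log2 fold change 0.31, SE 0.07, adjusted p = 0.00362), and after GC correction its log2 fold change was 0.19, with a transcript GC content of 64.1%. CST6, the cystatin E/M gene, had 2 counts over the BMI1 libraries and 0 over the GFP libraries.

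The inter-alpha-trypsin inhibitor heavy chains, some of which attach to hyaluronan in the matrix, included the larger of the 2 falls. ITIH6 had 2.90, 2.78 and 2.77 CPM in BMI1 libraries, against 6.52, 6.92 and 6.89 CPM in GFP libraries. The groups stood well apart (log2 fold change -1.27, SE 0.12, adjusted p = 5.82e-06). ITIH5 had 9.22 ± 0.995 CPM in BMI1 cells and 10.6 ± 0.694 CPM in GFP cells, with overlapping libraries (log2 fold change -0.20, 95% interval -0.42 to 0.01, adjusted p = 0.154). ITIH4, named after its values were seen, had 1.14 CPM in both groups and was not past the threshold. In GENCODE it shares 2975 exonic bases on the same strand with AC006254.1, which had no row in the table. ITIH1, ITIH2 and ITIH3 had 1 count each over the BMI1 libraries and 1, 1 and 2 over the GFP libraries. Of the 3 heavy chains tested, 0 rose and 1 fell, where 17.1% of all tested genes rose and 9.32% fell.

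**Figure D3:**
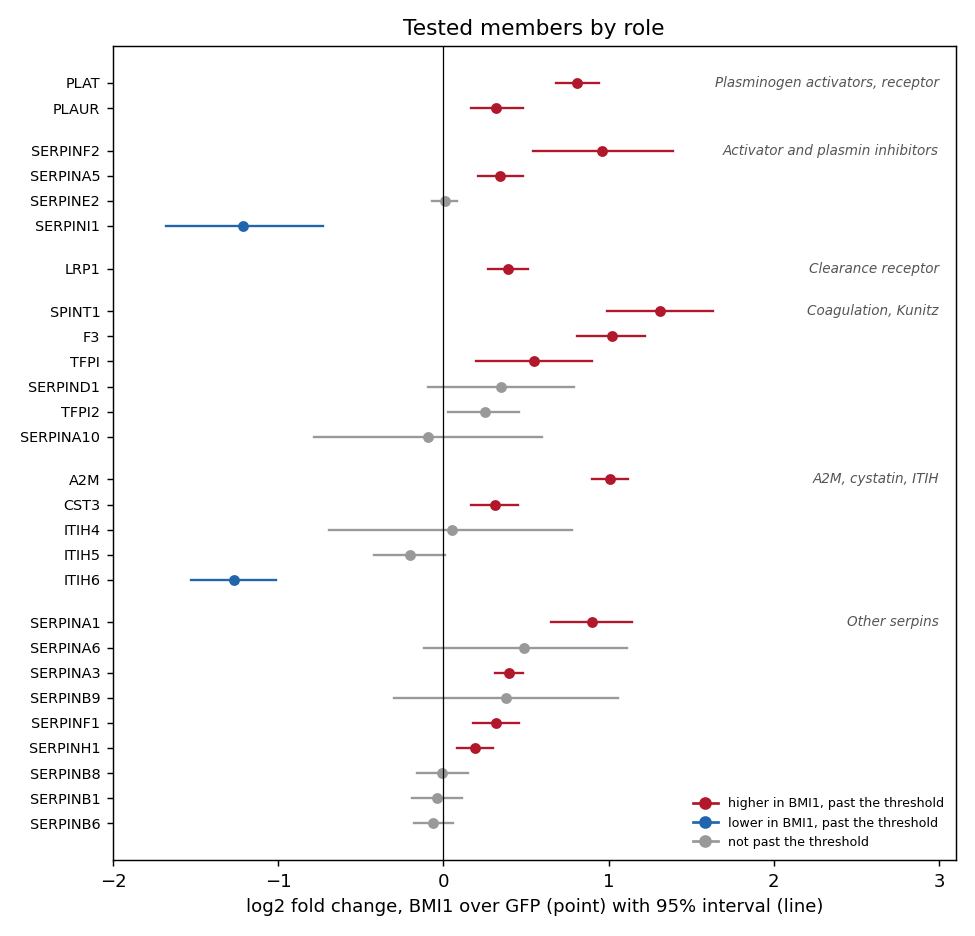
Log2 fold change (BMI1 over GFP, x axis) of 27 of the 28 tested genes with its 95% interval, grouped by role (red higher and blue lower in BMI1 past the threshold, grey not past it). SPINT1 at 1.31, F3 at 1.02 and A2M at 1.01 lie farthest right, SERPINI1 and ITIH6 lie far left, and SERPINE2 has one of the narrowest intervals, across 0.

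Clade A, the serpins of blood plasma, had 11 genes, of which 5 were tested, and 3 of those rose, SERPINA1, SERPINA3 and SERPINA5. The share of all tested genes that rose was 17.1%. SERPINA3, which encodes alpha-1-antichymotrypsin, an inhibitor of cathepsin G and chymase, was second in level to SERPINE2, with 963, 940 and 1000 CPM in BMI1 libraries, against 712, 749 and 745 CPM in GFP libraries. No library of one group fell in the range of the other, and the rise was 1.32-fold (log2 fold change 0.40, SE 0.04, adjusted p = 1.14e-05). SERPINA1, which encodes alpha-1-antitrypsin, the main inhibitor of neutrophil elastase, had 7.90, 6.89 and 7.29 CPM in BMI1 libraries, against 4.12, 3.97 and 3.78 CPM in GFP libraries. It rose 1.86-fold (log2 fold change 0.90, SE 0.11, adjusted p = 7.04e-05). The other two tested genes did not pass. SERPINA6, the corticosteroid-binding globulin gene, named after its values were seen, had 1.10 ± 0.109 CPM in BMI1 cells and 0.773 ± 0.278 CPM in GFP cells (log2 fold change 0.49, adjusted p = 0.224), and SERPINA10 had a log2 fold change of -0.09 (adjusted p = 0.865).

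Of the 11 clade A genes, 9 lie together on chromosome 14 by RefSeq's gene table, SERPINA7 lies on chromosome X and SERPINA13 was not matched. In their order on chromosome 14, SERPINA10, SERPINA6 and SERPINA1 come first, SERPINA11, SERPINA9, SERPINA12 and SERPINA4 follow, and SERPINA5 and SERPINA3 come last. The middle genes were at the floor, with 1 count for SERPINA4 over all 6 libraries and 0 for the other three, while the last pair held the highest levels of the cluster. Levels within the cluster therefore spanned from 0 counts to 968 ± 31.6 CPM in BMI1 cells and to 736 ± 20.3 CPM in GFP cells. GENCODE also lists a transcript, AL049839.2, that shares 1592 exonic bases with SERPINA3 and 79 with SERPINA5 on the same strand and has no row in the table, so its reads cannot be told apart from theirs.

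**Figure D4:**
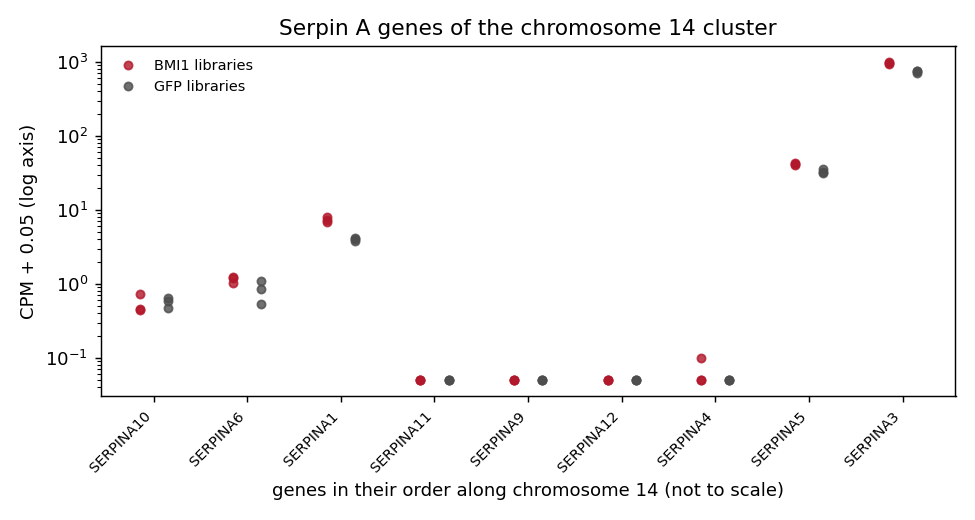
CPM plus 0.05 on a log axis for the clade A serpin genes of chromosome 14 in their order along it, BMI1 libraries in red left of GFP libraries in dark grey. SERPINA3 and SERPINA5 at one end are the most abundant, SERPINA11, SERPINA9 and SERPINA12 sit at 0 counts in all libraries, and BMI1 libraries lie above GFP libraries for SERPINA1, SERPINA5 and SERPINA3.

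Clade B, the intracellular serpins, held no gene that passed the test. Of 13 genes only 4 were tested, with log2 fold changes between -0.06 and 0.38. The share of all tested genes that passed was 26.4%. SERPINB6, an inhibitor of cathepsin G, had 73.9 ± 1.03 CPM in BMI1 cells and 77.2 ± 2.32 CPM in GFP cells (95% interval of the log2 fold change -0.18 to 0.06, adjusted p = 0.44). SERPINB1, an inhibitor of neutrophil proteases, had 42.6 ± 3.53 CPM in BMI1 cells and 43.7 ± 2.45 CPM in GFP cells (-0.19 to 0.11, adjusted p = 0.731). SERPINB8 had 20.4 ± 1.52 and 20.5 ± 0.749 CPM in BMI1 and GFP cells (-0.16 to 0.15, adjusted p = 0.953). None of these 3 intervals reached beyond 0.19 from 0. The interval of SERPINB9, named after its values were seen, was wider, from -0.30 to 1.06, on 39 counts over the BMI1 libraries and 34 over the GFP libraries (log2 fold change 0.38, adjusted p = 0.419). SERPINB8 is the last of 10 clade B genes in their order on chromosome 18, and the other 9 were not tested, with SERPINB7 highest among them at 3 counts over the BMI1 libraries and 13 over the GFP libraries. SERPINB3 and SERPINB4, near-identical copies whose reads are hard to tell apart, had 1 count each over all libraries. SERPINB5, the maspin gene, had 3 counts over each group.

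Of 5 serpins that do not inhibit proteases 3 were tested, of which 2 rose, SERPINF1 and SERPINH1, and SERPINA6 did not pass. By comparison, 17.1% of all tested genes rose. SERPINF1, which encodes pigment epithelium-derived factor, an inhibitor of angiogenesis, had 51.7, 49.3 and 52.2 CPM in BMI1 libraries, against 44.5, 38.9 and 39.6 CPM in GFP libraries. Its rise was 1.25-fold (log2 fold change 0.32, SE 0.06, adjusted p = 0.00241), with no overlap. SERPINH1, which encodes the collagen chaperone HSP47, had 131, 130 and 140 CPM in BMI1 libraries, against 122, 115 and 115 CPM in GFP libraries. This was the smallest called change, a rise of 1.14-fold (log2 fold change 0.19, SE 0.05, adjusted p = 0.0164). The call was lost without BMI1 replicate 1 (edgeR adjusted p = 0.0645) or 3 (0.112) and without GFP replicate 2 (0.0995) or 3 (0.0693), and after GC correction the log2 fold change was 0.11.

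Of the 55 genes, 27 did not pass the filter. None of them had more than 13 counts in a library, and 10 had 0 counts in every library, leaving an upper limit of 0.148 CPM at the lowest depth. A further 13 had between 1 and 10 counts over all libraries. The remaining 4 were A2ML1, PLAU, SERPINB7 and SERPING1, the C1 inhibitor gene, with 27 counts over the BMI1 libraries and 18 over the GFP libraries. Differences in these 27 genes were not detectable at this depth.

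SERPINE2 made up between 72.7% and 74.6% of the counts of the 55 genes in BMI1 libraries and between 78.5% and 79.2% in GFP libraries. The 55 genes together took between 0.768% and 0.789% of all counts in BMI1 libraries and between 0.718% and 0.73% in GFP libraries. Transcripts of genes that rose had a higher GC content. Among the members, the median was 54.5% for the 15 that rose, 47.4% for the 2 that fell and 51.7% for the 28 tested. It was 56.0% for all genes that rose, 43.9% for all genes that fell and 49.3% for all tested genes. After correction for GC content the same 17 genes passed in the same direction, with TFPI2 added. The part of GC content in single changes beyond this was not tested. Exons of A2M, TFPI, SERPINB8 and TFPI2 share 128, 118, 257 and 79 bases with antisense transcripts that have no row in the table.

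The proteases, cofactors and receptors that these genes act with were counted over fixed lists. For all of these counts, the shares of all tested genes were 17.1% for rises and 9.32% for falls. Of 15 genes listed as plasminogen cofactors and receptors 11 were tested, of which 3 rose and 2 fell. ANXA2 and S100A10, which together form a surface complex binding plasminogen and tissue plasminogen activator, moved in opposite directions. ANXA2 had 462 ± 6.69 CPM in BMI1 cells and 381 ± 10.7 CPM in GFP cells (log2 fold change 0.28, adjusted p = 0.0002), while S100A10 had 296 ± 6.85 CPM in BMI1 cells and 335 ± 7.09 CPM in GFP cells (log2 fold change -0.18, adjusted p = 0.00588). PLG, the plasminogen gene itself, had 5 counts over the BMI1 libraries and 4 over the GFP libraries. HPSE was on this list too, though it encodes heparanase, an enzyme that is neither a plasminogen cofactor nor a plasminogen receptor. It rose by 0.94 on the log2 scale. MRC2, a collagen receptor that binds urokinase and its receptor, rose by 0.19, and that call was lost without BMI1 replicate 3 (edgeR adjusted p = 0.171), without GFP replicate 2 (0.153) or 3 (0.083) and after GC correction (0.109). After GC correction its log2 fold change was 0.07.

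Of 16 coagulation factors and thrombin receptors 10 were tested, of which 5 rose and 1 fell. The thrombin receptor F2R had 103 ± 3.57 CPM in BMI1 cells and 123 ± 2.33 CPM in GFP cells (log2 fold change -0.25, adjusted p = 0.0025). F2RL1, the receptor cut by trypsin-like proteases and by the tissue factor complex, had 16.8 ± 1.24 CPM in BMI1 cells and 11.2 ± 0.186 CPM in GFP cells (log2 fold change 0.58, adjusted p = 0.000122). PROCR, the endothelial protein C receptor, rose by 0.79 and F2RL2, a further protease-activated receptor, by 0.40 on the log2 scale. Of 23 membrane and secreted serine proteases and partners 11 were tested, and 7 rose and none fell. PCSK6, a proprotein convertase, had 16.6 ± 1.09 CPM in BMI1 cells and 2.63 ± 0.262 CPM in GFP cells (log2 fold change 2.67, adjusted p = 3.9e-09), and the secreted protease HTRA3 had 10.8 ± 0.488 CPM in BMI1 cells and 1.83 ± 0.0682 CPM in GFP cells (log2 fold change 2.55, adjusted p = 9.46e-09). PCSK5 and HTRA1 rose by 1.40 and 0.85 on the log2 scale.

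The next list holds targets of the cystatins beside genes that are not targets. Of 19 cathepsins, other cystatins and legumain 13 were tested, of which 8 rose and 1 fell. CTSH, an aminopeptidase of the lysosome, had 25.0 ± 2.26 CPM in BMI1 cells and 7.73 ± 1.05 CPM in GFP cells (log2 fold change 1.70, adjusted p = 9.42e-08), and CTSZ had 390 ± 11.7 CPM in BMI1 cells and 518 ± 36.0 CPM in GFP cells (log2 fold change -0.41, adjusted p = 7e-05). CTSB, which cystatin C inhibits, rose by 0.30, CTSK by 0.76 and CTSF by 0.55 on the log2 scale, while CTSL1, the cathepsin L gene, did not pass (log2 fold change 0.04, adjusted p = 0.663). Of 18 thioester proteins, clearance receptors and hyaluronan partners 12 were tested, and 5 rose and none fell. CD44, the hyaluronan receptor, rose by 0.40, HAS2, a hyaluronan synthase, by 1.10 and VLDLR, a relative of LRP1, by 0.66 on the log2 scale. Over the 5 lists and 1 of other inhibitors, 67 genes were tested, of which 34 rose and 4 fell, with a median log2 fold change of 0.28. The share that passed was 56.7% here and 60.7% for the 28 tested genes, beside 26.4% for all tested genes.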

How the data were processed

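RNA from A375 cells was sequenced in 6 libraries, 3 of BMI1 and 3 of GFP cells. The authors deposited estimated counts per gene symbol (expected counts) as RSEM gives them, not normalized. Per the submitters' processing notes, RSEM 1.2.12, Bowtie 1.0.1 and hg19 were used; settings, strand use and annotation: not given in the sources used here. Groups came from titles, and all columns were matched to labels.

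Estimated counts were rounded, filtered with filterByExpr (10 counts in a library of median depth, 0.427 CPM, in 3 libraries; 15079 genes kept), scaled by TMM and tested with edgeR 4.0.16 in R 4.3.3, with Benjamini-Hochberg adjustment over tested genes and a threshold of 0.05. Adjusted p-values are from this test unless named otherwise. The standard error is the log2 fold change over the square root of F. Intervals of 95% use the test's degrees of freedom. The floor is 3 counts, between 0.099 and 0.148 CPM per library, and covers counting error only. Alternatives were DESeq2 1.42.0, limma-voom (limma 3.58.1), other scalings and filters, each library left out, a replicate block and a lowess correction for transcript GC content. Transcript length and GC came from APPRIS principal transcripts of GENCODE 29, matched for 94.6% of tested genes and for all 28 tested members. The tests were checked on simulated counts. No hg19 annotation was used, so gene coordinates are not given and promoters carry their own build.

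The genes, lists and tests were chosen with earlier results of these data known. Named were members past the threshold, others with at least 10 CPM or in the plasminogen, coagulation or Kunitz groups, and up to 4 genes per related list with the smallest adjusted p, with some fixed names. For 1 member that counts and medians include, the values are not reported here. Figures were drawn with matplotlib 3.10.9.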

Additional observations from a re-analysis of the deposited data

How the results depend on the processing

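Of the 17 genes that passed the test, all 17 passed in the same direction under each of the 8 alternatives that keep every library, and 15 did so on leaving out each library in turn. The exceptions were SERPINH1 and TFPI, as given above. Counts of members that rose lay between 13 and 16 with a library left out and were 16 with the replicate block and after GC correction, and 2 fell each time. The count of related genes that fell was 7 after GC correction in place of 4. The count of all genes that fell was 2560 after GC correction in place of 1405, and between 711 and 2451 with a library left out, lowest without BMI1 replicate 3 and highest without GFP replicate 1; the cause was not tested. Of the 11 members that did not pass, 8 were followed under the alternatives, and ITIH4, SERPINA6 and SERPINB9 were not. The log2 fold changes of 4 of the 8 changed sign under some alternatives. SERPINE2 had a log2 fold change of -0.0010 with DESeq2 and -0.0014 with no filter, and between -0.0149 and 0.0235 with a library left out. SERPINB8 had 0.0016 with upper-quartile scaling, 0.0010 with at least 1 CPM in 3 libraries and 0.0594 after GC correction, SERPINB1 0.0054 after GC correction. Leaving out a library gave SERPINB8 between -0.0658 and 0.0439, SERPINB1 between -0.09 and 0.025 and SERPINA10 between -0.38 and 0.0398. The replicate numbers were not used for pairing: deviations of same-numbered libraries correlated at 0.0681, 0.0944 and -0.0648, and BMI1 replicates 2 and 3 correlated best with GFP replicates 3 and 1. With the number as a block, 2580 genes rose and 1408 fell. Depth limits the 27 genes below the filter.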

Other observations

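Of 24 genes listed as other protease inhibitors that had a row, 10 were tested, of which 6 rose, none fell and 4 did not pass. Among all tested genes 17.1% rose and 9.32% fell. TIMP3, TIMP1 and TIMP2, inhibitors of matrix metalloproteases, had log2 fold changes of 0.78, 0.75 and 0.41 (edgeR adjusted p = 1.13e-08, 2.14e-07 and 3.99e-05). TIMP2 had 181 ± 6.01 CPM in BMI1 cells and 137 ± 4.33 CPM in GFP cells. APLP2, an amyloid precursor-like protein with a Kunitz domain, had 329 ± 3.27 CPM in BMI1 cells and 185 ± 2.77 CPM in GFP cells (log2 fold change 0.83, edgeR adjusted p = 1.65e-08). Its relative APP, named after its values were seen, had 662 ± 5.91 CPM in BMI1 cells and 650 ± 7.89 CPM in GFP cells and did not pass (edgeR adjusted p = 0.645). The leukocyte protease inhibitors SLPI and PI3 had 0 counts in each library.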
